A study of Drosophila melanogaster with 4 samples.

Results

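The microRNA (miRNA) miR-252 is made from 1 hairpin precursor, whose sides give the mature arms miR-252-5p and miR-252-3p. Both arms were followed through the small RNA of Drosophila melanogaster heads, as 2 of the 550 arms into which the deposited reads could be grouped. An arm's reads were the distinct sequences that overlapped its most abundant read over at least 15 nt without a mismatch. Most abundant here means the highest share summed over the 4 libraries. The leading read named below is instead the one with the most reads in the 2 libraries without oxidation. For both arms of miR-252, overlap with that leading read gave the same set of sequences. By that rule miR-252-5p held 41 distinct sequences and miR-252-3p held 16. Reads were assigned by sequence alone, around the most abundant read of each arm, and no ratio between libraries entered the rule.

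Heads were taken from wild-type males (genotype label 5905) raised at 25˚C, and RNA was sequenced at 3 and at 30 days of age. Each age gave 1 library of RNA put through oxidation with β-elimination and 1 library of control RNA that was not oxidized, so the study holds 4 libraries and 1 per group. No promoter, transgene or mutation distinguishes the groups, and how many flies a library pools was not given in the sources used here. For 2 of the libraries the age tag goes against the title and description, and the ages used here follow the titles.

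One strand of a miRNA duplex is loaded into an Argonaute protein and the other, the star strand, is mostly lost. In flies most guides stay in AGO1, whereas small RNAs held in AGO2 are 2′-O-methylated at the 3′ end by Hen1. Periodate oxidation followed by β-elimination spares RNAs with that methyl group and takes those with a free 3′ end out of the ligatable pool. An arm enriched after oxidation is therefore one that resisted the treatment better than the reads around it. Target choice rests largely on the seed, bases 2 to 8 from the 5′ end, so a shift of the 5′ end gives another seed. In Drosophila, miR-252-5p has been reported to repress Abi, an actin regulator, and mbt, a p21-activated kinase.

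The reads the results turn on are shown 5′ to 3′ as deposited, with T for U and bases 2 to 8 of each read in capitals. The leading 22-nt read of miR-252-5p comes first, then its 20-nt form and the form that begins 1 base late, whose capitals mark the shifted seed. The leading 22-nt read of miR-252-3p and the 20-nt form that begins 2 bases later follow.
miR-252-5p, 22 nt: cTAAGTACtagtgccgcaggag
miR-252-5p, 20 nt: cTAAGTACtagtgccgcagg
miR-252-5p, 1 base late: tAAGTACTagtgccgcaggag
miR-252-3p, 22 nt: tCCTGCTGcccaagtgcttatt
miR-252-3p, 2 bases late: cTGCTGCCcaagtgcttatt

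The tables carry no miRNA names. The name miR-252-5p rests on its 7-base seed as recalled from the public catalogue, which 1 of the 550 arms carried. The 3p arm was then found as the best duplex partner among the 549 other arms, at -23 kcal/mol against -21.7 kcal/mol for the next, an arm with 1 read. Both leading reads are 22 nt long, as are both arms of mir-252 in the Ensembl annotation of build BDGP6. That annotation places the hairpin on the minus strand of chromosome arm 3R from 13464219 to 13464311, with miR-252-5p at 13464275 to 13464296 and miR-252-3p at 13464231 to 13464252. The hairpin lies within the noncoding genes asRNA:CR17025 (13455511 to 13466106) and asRNA:CR46354 (13459671 to 13466106) and overlaps no exon of either, so it is intronic. The coordinates come from the gene's name and not from the reads. No other arm shared bases 2 to 8 with miR-252-5p, 2 arms of at most 111 reads over the 4 libraries shared bases 2 to 7, and 0 arms shared either with miR-252-3p.

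The 4 tables held 2091252 (3 days, oxidized) to 17345816 reads (30 days, not oxidized), and levels are given as RPM, reads scaled to a table total of 1000000. With 1 library per group there is no replicate check, and no difference was tested. Intervals are 95% counting intervals, exact Poisson for levels and exact Clopper-Pearson for shares and for ratios of 2 libraries. Those of the age change and of odds ratios are normal approximations on the log scale, which are rough where they rest on the 6 reads of miR-252-3p in the 3-day oxidized library. All cover counting error only, since the reads carry no molecular identifiers. All 6 neural miRNAs listed for head tissue were present in every library, from 106 to 33219 RPM without oxidation (miR-137-3p at 30 days and miR-957-3p at 3 days). In 4 of them the mean over each pair compared was at least 100 RPM. Their log2 ratios of RPM with over without oxidation were -2.87 to -1.22 on table totals. The others, below that mean, were also lower with oxidation, by less in miR-219-5p at 3 days. miR-219-5p went from 120 to 78.4 RPM at 3 days and from 122 to 41.9 RPM at 30 days. miR-137-3p went from 109 to 34.9 RPM and from 106 to 15.4 RPM. In bulk heads, fewer cells of a type and less RNA per cell cannot be told apart.

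miR-252-5p was an abundant arm at both ages and stood higher in both oxidized libraries. Without oxidation it gave 33541 reads at 3 days and 40580 reads at 30 days, which is 2082 RPM (2059 to 2104) and 2339 RPM (2317 to 2362). With oxidation it gave 32784 and 212969 reads, which is 15677 RPM (15508 to 15847) at 3 days and 17593 RPM (17518 to 17668) at 30 days. The counting intervals of the 4 libraries did not overlap, and in each pair the 30-day library lay slightly above the 3-day library. Among all arms miR-252-5p ranked 39th and 37th from the top without oxidation and 15th and 7th with it. In the 3-day control library it lay between miR-11-5p (2146 RPM) and miR-190-5p (2005 RPM), and in the 30-day control library between miR-31a-5p (2355 RPM) and miR-279-3p (2254 RPM). After oxidation its neighbours were miR-317-3p (16196 RPM) and miR-277-3p (14904 RPM) at 3 days, and miR-995-3p (28463 RPM) and miR-11-3p (15687 RPM) at 30 days.

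miR-252-3p was scarce in every library. It gave 45 reads at 3 days and 79 reads at 30 days without oxidation, or 2.79 RPM (2.04 to 3.74) and 4.55 RPM (3.61 to 5.68). With oxidation it gave 6 and 86 reads, or 2.87 RPM (1.05 to 6.24) and 7.10 RPM (5.68 to 8.77). The 2 libraries of 3-day flies could not be ordered at this depth, and the interval of the 3-day oxidized library also overlapped both 30-day intervals. Zero reads would have allowed up to 1.43 RPM in that library and at most 0.248 RPM in the others.

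**Figure D1:**
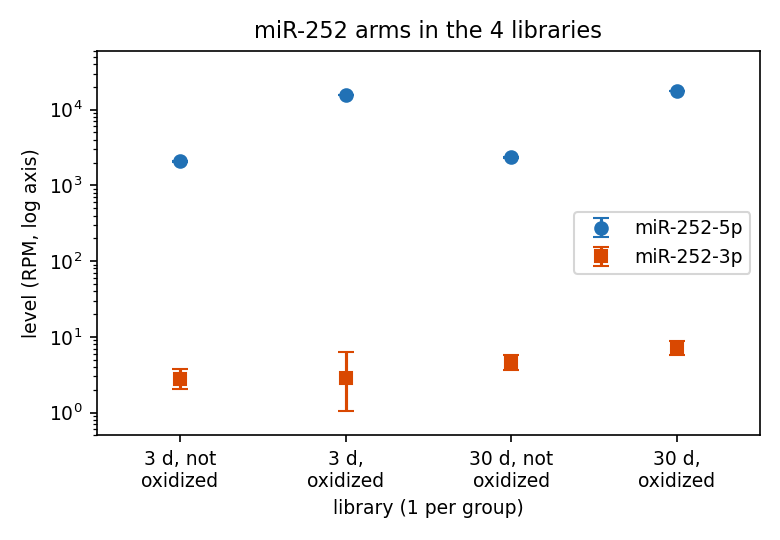
Level of miR-252-5p (circles) and miR-252-3p (squares) in each of the 4 libraries, in RPM on a log axis, with 95% Poisson intervals that cover counting error only. The 5p arm sits near 2082 and 2339 RPM without oxidation and at 15677 and 17593 RPM with it, while the 3p arm stays between 2.79 and 7.10 RPM.

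The oxidation ratio is the RPM with oxidation over the RPM without it at the same age. For miR-252-5p its log2 was 2.91 (2.89 to 2.93) at 3 days, 7.53-fold, and 2.91 (2.90 to 2.93) at 30 days, 7.52-fold. The size depends on the scaling: at 3 days the log2 ratio was 1.93 with the trimmed mean of M-values (TMM), 2.88 with median-of-ratios scaling and 3.45 with totals that leave out miR-263a-5p, the most abundant arm of the oxidized libraries. At 30 days the same scalings gave 3.47, 3.57 and 3.90. Ratios of other arms are given for those with a mean of at least 100 RPM and at least 50 reads over the libraries compared. Of 98 such arms at 3 days, 35.7% gained 2-fold or more with oxidation and 43.9% lost 2-fold or more, and the median log2 ratio was -0.69. Of 95 arms at 30 days, 29.5% gained and 52.6% lost as much, and the median was -1.28. These shares shift with the scaling: TMM gave 22 higher and 59 lower of 97 arms at 3 days. Totals without miR-263a-5p gave 42 and 30 of 103 at 3 days and 40 and 39 of 103 at 30 days. miR-252-5p ranked 20th from the highest at 3 days and 14th at 30 days. The filter admits arms that are abundant only after oxidation. With the filter on the control library alone, 24 of 94 arms gained 2-fold or more and 50 lost as much at 3 days, and 20 of 93 gained and 56 lost at 30 days, and miR-252-5p ranked 12th and 9th. At 3 days it followed miR-92b-3p (log2 ratio 3.20) and miR-998-3p (3.02) and preceded miR-276a-5p (2.59) and miR-988-3p (2.30). At 30 days it followed an unnamed arm (3.01) and bantam-5p (2.92) and preceded miR-124-5p (2.72) and miR-125-5p (2.48). Several of those neighbours are star strands, whereas miR-252-5p is the major arm of its hairpin.

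On the scale of table totals the oxidation ratio of miR-252-5p differed between the ages by less than its counting error, while the median arm had a lower ratio at 30 days. Its log2 age change (30 days minus 3 days) was -0.0021 (-0.029 to 0.025), against a median of -0.77 over 98 arms, of which 0% were higher and 29.6% lower by 2-fold or more. It ranked 10th from the highest, between miR-285-3p (0.065) and let-7-5p (-0.059). A scaling moves every arm by the same amount, so the order of the arms does not depend on it but the value does. TMM scaling gave 1.54 for miR-252-5p and turned the background to 32 arms higher and 1 lower, and median-of-ratios scaling gave 4 and 6. The distance of miR-252-5p above the median of all arms was 0.77 with table totals, TMM and median-of-ratios scaling, and 0.79 with totals that leave out miR-263a-5p.

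**Figure D2:**
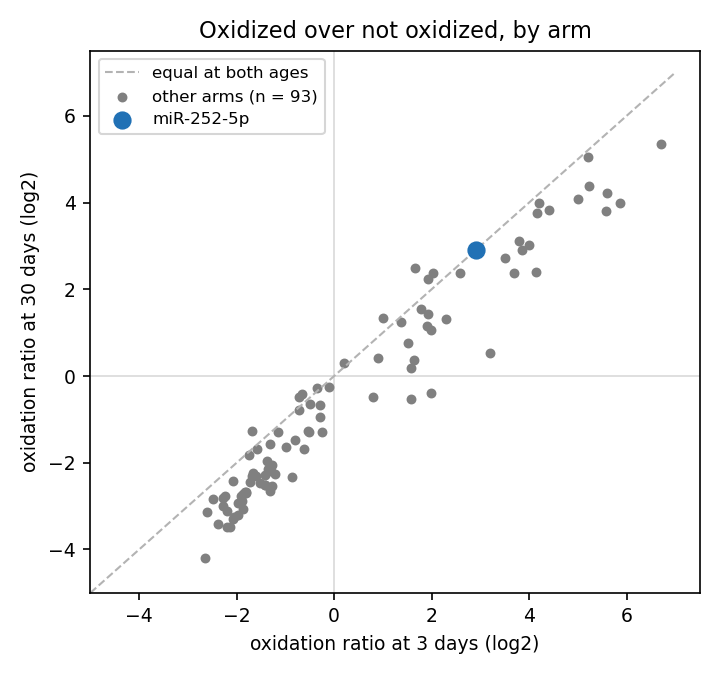
Log2 oxidation ratio of each arm at 3 days (horizontal) and 30 days (vertical), for miR-252-5p (large point) and the 93 other arms past the level filter at both ages, on the scale of table totals. miR-252-5p lies on the dashed line of equal ratios, at 2.91 on both axes, with most other arms below it.

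On the scale of table totals, age moved miR-252-5p little within each treatment. Its log2 ratio of 30 over 3 days was 0.17 (0.15 to 0.19) without oxidation and 0.17 (0.15 to 0.18) with it, 1.12-fold in both pairs. Without oxidation a difference of 2-fold or more upward was seen in 5.26% and downward in 4.21% of 95 arms, the median was 0.014, and miR-252-5p ranked 41st. Of 96 arms in the oxidized pair, 0% lay that far up and 27.1% that far down, the median was -0.65, and miR-252-5p ranked 10th. TMM scaling gave 0.086 without and 1.63 with oxidation for miR-252-5p, with 3 arms higher and 4 lower in the control pair and 41 higher and 1 lower in the oxidized pair. The oxidized pair split 6 to 11 with median-of-ratios scaling and 3 to 15 with totals that leave out miR-263a-5p. With these 2 scalings the log2 age ratio of miR-252-5p in the oxidized pair was 0.81 and 0.63. Its small size in that pair therefore rests on the scaling. All these comparisons share libraries and are not independent of each other.

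miR-252-3p had a lower oxidation ratio than its partner at both ages. Its log2 oxidation ratio was 0.039 (-1.48 to 1.27) at 3 days and 0.64 (0.18 to 1.10) at 30 days, and the age change of 0.60 (-0.70 to 1.91) was not detectable at this depth. The scalings named above, TMM, median-of-ratios and totals without miR-263a-5p, gave -0.95, 0.0012 and 0.58 at 3 days, and 1.20, 1.30 and 1.63 at 30 days. Its log2 age ratio was 0.71 (0.16 to 1.27) without oxidation and 1.31 (0.13 to 2.79) with it, the latter resting on 6 reads at 3 days. The arm lay below the level filter in every comparison and is in none of the counts of arms.

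The balance of the arms compares reads within a library and is free of scaling. miR-252-3p made up 0.134% of the reads of both arms (0.0977 to 0.179) at 3 days and 0.194% (0.154 to 0.242) at 30 days without oxidation. With oxidation its share was 0.0183% (0.00672 to 0.0398) and 0.0404% (0.0323 to 0.0498). Both oxidized shares lay below both control shares with no overlap of intervals. The odds of a 3p against a 5p read were 7.33-fold lower after oxidation at 3 days (odds ratio 0.136, 0.0582 to 0.320) and 4.82-fold lower at 30 days (0.207, 0.153 to 0.282). From 3 to 30 days the odds ratio was 1.45 (1.01 to 2.09) without oxidation and 2.21 (0.964 to 5.05) with it, so that the oxidized pair could not be ordered.

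In most of the hairpins compared the minor arm had higher odds against the major arm after oxidation. Pairing of the arms gave 58 hairpins. The minor arm was the one with fewer reads in the 2 control libraries, without a check against known guides. Star share and star reads below mean those of the minor arm. The minor arm's odds were higher in 33 and lower in 13 of the 46 with enough reads at 3 days. At 30 days they were higher in 36 and lower in 14 of 50. Enough means at least 50 minor-arm reads summed over the pair compared, so some minor arms entered only through their oxidized reads. An unnamed minor arm had 3 reads without and 58 with oxidation at 3 days. These counts and medians can therefore favour higher odds, and a filter on the control libraries alone was not run for hairpins. The median log2 change of the odds was 2.67 and 2.20, against -2.87 and -2.27 for miR-252, which ranked 3rd and 6th from the lowest. Of the 42 major arms past the level filter of the libraries compared at each age, 14.3% were at least 2-fold higher after oxidation at 3 days and 16.7% at 30 days, and miR-252-5p was the 4th and the 3rd highest of them. miR-927-5p, miR-995-3p, miR-10-5p and miR-285-5p were also at least 2-fold higher at both ages. The level filter also admits major arms through their level after oxidation. The hairpins whose star share without oxidation was nearest to the 0.167% of miR-252 included let-7 (0.242%) and miR-276a (0.275%). After oxidation at 3 and 30 days the star share was 6.85% and 7.21% in let-7 and 4.68% and 12.8% in miR-276a, both higher than without it. Of the 3 others, unnamed, the share was higher at both ages in 1, on 4 and 17 oxidized star reads. In another it went from 0.108% to 0.131% and from 0.0970% to 0.0334%, on 2 and 3 such reads. In the last it went from 0.0869% to 0.0430% and from 0.0941% to 0.0983%, on 2 and 23 such reads. In these last 2 hairpins the counts are too few to order the shares with and without oxidation. The same holds at 3 days for the first unnamed hairpin, 0.0987% without and 0.288% with oxidation on 4 star reads.

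**Figure D3:**
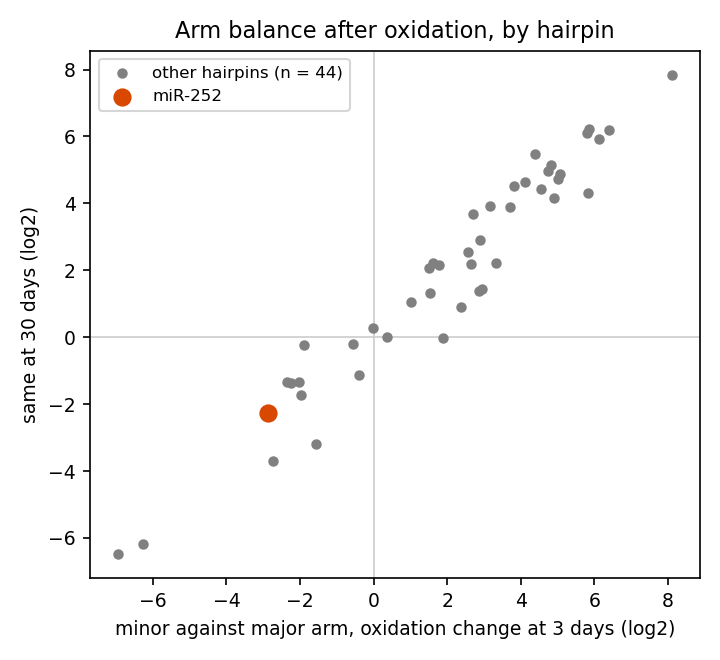
Log2 change of the odds of a minor-arm against a major-arm read after oxidation, at 3 days (horizontal) and 30 days (vertical), for miR-252 (large point) and 44 other hairpins measured at both ages. miR-252 lies at -2.87 and -2.27, in the lower left with the hairpins in which both odds fell.

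miR-252-5p reads differed mostly at the 3′ end. The exact 22-nt read made up 69.7% of them at 3 days and 58.2% at 30 days without oxidation, and 65.3% and 58.5% with it. Its 21-nt form, 1 base short, made up 18.3% and 24.9% without oxidation and 26.2% and 23.0% with it. The 20-nt form printed above counted 541 reads at 3 days and 1299 at 30 days without oxidation, and 1425 and 27864 reads with it. In shares this was 1.61% and 3.20% without oxidation and 4.35% and 13.1% with it, so that both age and oxidation went with a larger share of the 20-nt form. The 23-nt form, with 1 T more, went the other way under oxidation, from 5.80% to 2.61% at 3 days and from 6.90% to 3.14% at 30 days. Whether the added T is encoded in the hairpin was not analysed here.

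The forms of miR-252-5p therefore had unequal oxidation ratios. At 3 days the 22-nt read was 7.06-fold higher with oxidation, the 21-nt form 10.8-fold, the 20-nt form 20.3-fold and the 23-nt form 3.39-fold. At 30 days the folds were 7.56, 6.95, 30.7 and 3.41 in the same order. The 18-nt form was 28.4-fold and 23.4-fold higher, but rested on 13 and 42 reads without oxidation. The 16-nt form, 329 and 426 reads without oxidation, had ratios of 1.24 and 0.98 and was the shortest length in the tables. Against the reads that end with the 22-nt read, those ending 2 bases short had 2.92-fold higher odds after oxidation at 3 days and 4.20-fold higher odds at 30 days. The odds of that end were higher in 45 of 71 arms at 3 days and in 57 of 83 at 30 days, and miR-252-5p was the 20th and 19th highest. From 3 to 30 days its odds were 2.35-fold higher without and 3.37-fold higher with oxidation, and they were higher in 69 of 78 and 67 of 76 arms. The sets of arms differ between these comparisons. For oxidation, no count with arms chosen on the control libraries alone is given. The mean length of all miR-252-5p reads was 21.7 and 21.6 nt without oxidation and 21.6 and 21.5 nt with it. Its 4 changes in mean length, from -0.11 to -0.16 nt, lay beside medians over 98 arms of -0.092 to -0.15 nt, and its rank was 46 to 54.

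**Figure D4:**
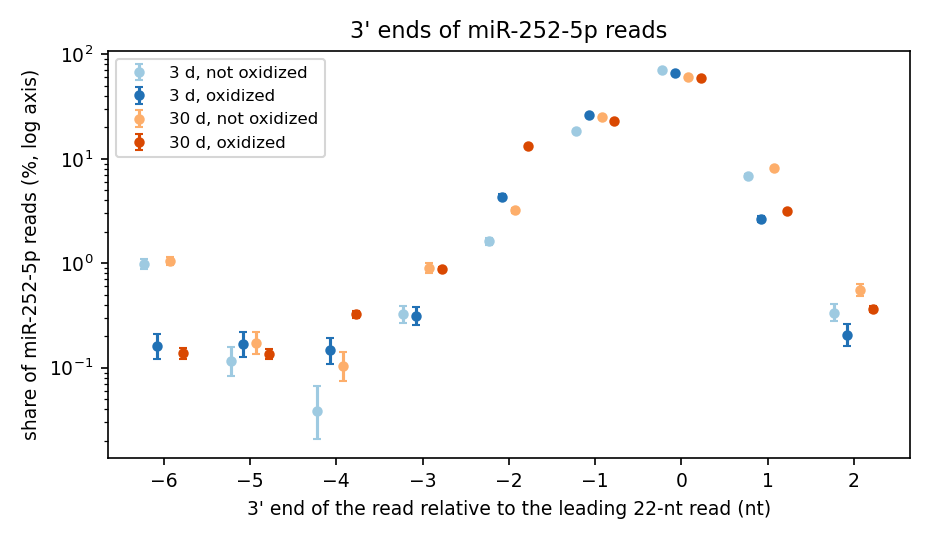
Share of miR-252-5p reads by 3′ end, counted in bases from the last base of the leading 22-nt read, in percent on a log axis with 95% Clopper-Pearson intervals, for each of the 4 libraries. The end 2 bases short is highest in the 30-day oxidized library (13.1%), and the end 1 base past is lower in both oxidized libraries (2.63% and 3.15%) than in the controls (6.82% and 8.14%).

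The 5′ end of miR-252-5p was more uniform, and late starts made up a smaller share of the arm after oxidation. Between 95.9% and 99.6% of reads in a library began with the leading C. Reads that begin 1 base late, with the T at base 2 and another seed, counted 854 at 3 days and 1471 at 30 days without oxidation, and 137 and 587 with it. That was 2.55% (2.38 to 2.72) and 3.62% (3.45 to 3.81) of the arm without oxidation, and 0.42% (0.35 to 0.49) and 0.28% (0.25 to 0.30) with it. The oxidized and control intervals did not overlap at either age. The odds of a late against a leading start were 6.24-fold lower after oxidation at 3 days and 13.7-fold lower at 30 days. These log2 changes, -2.64 and -3.77, were the 2nd lowest of 47 arms (median 0.28) and the 2nd lowest of 62 arms (median 1.59). The 2 medians thus cover unlike sets of arms. No count with arms chosen on the control libraries alone is given, so some arms may have entered through their oxidized reads.

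The measured odds of late starts were lower after oxidation at each 3′ end examined, but not on equal numbers of reads. Among reads ending with the leading read, 473 of the late reads at 3 days and 897 at 30 days stood in the controls and 104 and 422 in the oxidized libraries, with log2 odds changes of -2.06 and -3.49. Among reads ending 1 base past it, the late share was 14.9% and 14.7% in the controls and 0.927% and 0.373% after oxidation, with 8 and 25 late reads left. Among those ending 1 base short, the log2 odds changes were smaller, -0.41 and -1.26. The 3-day value rests on 20 late reads without and 21 with oxidation, too few to order those 2 libraries. Arms whose first 2 bases are C and T, as in miR-252-5p, were few. Their late-start odds were lower in 2 of 3 at 3 days and in 2 of 4 at 30 days, miR-252-5p included.

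**Figure D5:**
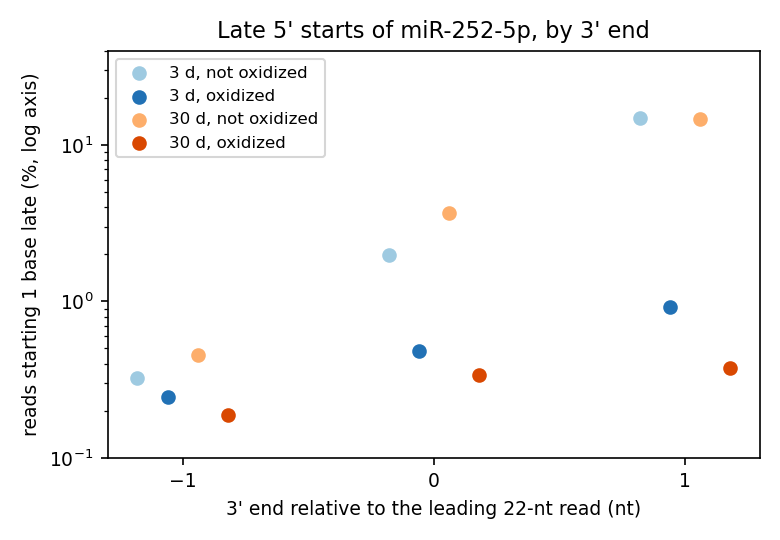
Share of miR-252-5p reads that begin 1 base late among those of the 2 starts, in percent on a log axis, by 3′ end counted from the last base of the leading 22-nt read, for each of the 4 libraries. At every end shown the oxidized libraries lie below the control of the same age, and the gap is widest 1 base past the leading end (14.9% against 0.927%, and 14.7% against 0.373%). At the end 1 base short the 3-day points rest on 20 and 21 late reads and cannot be ordered.

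The few miR-252-3p reads also changed their 5′ end with oxidation. Without oxidation 29 of 45 reads at 3 days and 53 of 79 at 30 days began with the T of the 22-nt read, 64.4% (48.8 to 78.1) and 67.1% (55.6 to 77.3). With oxidation 1 of 6 and 4 of 86 did so, and the latter is 4.65% (1.28 to 11.5). Reads that begin 2 bases later, with a C, counted 5 and 3 without oxidation and 4 and 51 with it, the last being 59.3% (48.2 to 69.8) of the arm. The 20-nt form printed above supplied 47 of those 51 reads, and the 22-nt leading read fell from 33 to 2 reads between the 30-day libraries. The 3-day oxidized library, with 6 reads, gives the same order on too few reads to place it. In both arms of miR-252, reads that begin with C thus made up a larger share with oxidation than without it. The leading read was set on the control libraries, which can favour a lower share of it after oxidation.

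Arms were also split by the first base of their leading read, which is C in miR-252-5p. When the mean RPM of the pair compared set the filter, 15 of 24 arms that begin with C were at least 2-fold higher and 3 lower after oxidation at 3 days (median log2 ratio 1.82), and 14 of 24 higher and 6 lower at 30 days (1.33). Some of these arms passed only through their level after oxidation. With the filter on the control library, an alternative chosen after seeing the data, 8 of 17 lay that far up and 4 that far down at 3 days (-0.28), against 7 and 7 of 18 at 30 days (-0.60), so the sign of the median rests on the filter. The ratio of miR-252-5p, 2.91 at both ages, lay above the median of the arms that begin with C under either filter. Under the control filter the arms that begin with T were 5 higher and 39 lower of 53 at 3 days (-1.67) and 3 higher and 41 lower of 51 at 30 days (-2.45). Those that begin with A were 7 higher and 5 lower of 15 (0.89), then 6 higher and 7 lower of 16 (0.012). Those that begin with G were 4 higher and 2 lower of 9 (0.19), then 4 higher and 1 lower of 8 (0.72).

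The arms whose centred log2 RPM over the 4 libraries lay nearest to miR-252-5p were miR-276a-5p, miR-996-5p, miR-263b-5p, miR-124-5p and bantam-5p, at Euclidean distances of 0.60 to 0.82 among 97 arms with a median distance of 3.87. The closest, miR-276a-5p, rose from 212 to 1278 RPM with oxidation at 3 days and from 342 to 1778 RPM at 30 days. None of the 5 remained among the nearest when arms down to 10 RPM were ranked, so the list rests on the level filter.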

How the data were processed

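The authors deposited raw counts, in 1 table without a header for each library, each row a read sequence and its number of reads. Per the labels' protocols, libraries were made with Illumina's TruSeq small RNA kit. Per the submitters' processing notes, CASAVA 1.8.2, Bowtie and the build dm3 were used, with no role given, and adapter trimming was not given in the sources used here.

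Sequences listed more than once had equal counts and were counted once. Reads of up to 30 nt were grouped into arms by overlap of at least 15 nt without mismatch. They could reach up to 6 nt beyond the arm's most abundant read at either end. Of 5550 sequences, 21 matched unlike arms and were left out (at most 0.0545% of a library). No catalogue of mature or hairpin sequences was used. The seed of miR-252-5p and the starts of 39 other arms were written from memory; the leading read was within 1 nt of an annotated arm's length for 33 of the 39. Arms were paired into hairpins as mutual best duplexes (ViennaRNA 2.7.2, overhangs of at most 4 nt). Levels are counts scaled to 1000000 reads per table. Ratios use numpy 2.4.6 and scipy 1.17.1; edgeR 4.0.16 supplied only the TMM factors. The counts range from 2091252 to 17345816 reads per library, and 1 library per group allows no test. The arm grouping and the ratios were tested on simulated data.

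The members and lists were chosen with earlier results of these data known. Arms named are the members, the nearest in level, ratio or profile (5 for profile), those sharing a seed, 6 neural miRNAs and hairpins of like star share.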

Additional observations from a re-analysis of the deposited data

Results flagged for a closer look

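The reads of miR-252-5p that begin 1 base late moved in opposite directions at the 2 ages. Their log2 RPM ratio with over without oxidation was 0.31 (0.035 to 0.57) at 3 days and -0.81 (-0.95 to -0.67) at 30 days. Read by age, their log2 ratio of 30 over 3 days was 0.68 without oxidation and -0.43 with it. These are the same 4 libraries seen from both sides, with 1 library per group, and the difference between them was not tested. These signs depend on the scaling: the oxidation ratio was -0.68 at 3 days with TMM and 0.19 at 30 days with totals that leave out miR-263a-5p, alternatives chosen after seeing the data. The odds of a late against a leading start need no scaling and were lower after oxidation at both ages.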

How the results depend on the processing

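With totals that leave out miR-263a-5p, median-of-ratios and TMM scaling, the log2 oxidation ratio of miR-252-5p was 3.45, 2.88 and 1.93 at 3 days and 3.90, 3.57 and 3.47 at 30 days (2.93 with an overlap of 18 nt). Its age change was 0.45, 0.69 and 1.54, and its age ratio with oxidation 0.63, 0.81 and 1.63. Without oxidation the age ratio was 0.11 (median-of-ratios) and 0.086 (TMM). For miR-252-3p the ratio at 30 days was 1.63, 1.30 and 1.20, and the age change 2.15 with TMM. Without miR-263a-5p, higher and lower arms split 42 to 30 of 103 at 3 days and 40 to 39 of 103 at 30 days. They split 22 to 59 of 97 at 3 days with TMM, and 4 to 6 of 98 in the age change with median-of-ratios. The main filter gave 78 of 98 arms past 2-fold at 3 days and 78 of 95 at 30 days. It gave 29 of 98 in the age change, 26 of 96 in age with oxidation and 9 of 95 in age without it. No level filter gave 148 of 187, 161 of 201, 80 of 210, 59 of 174 and 19 of 207 in the same order. A filter at 10 RPM gave 134 of 167, 124 of 154, 58 of 164, 48 of 152 and 11 of 155. The counts thus rose along with the number of arms compared. The age change gave 10 of 105 arms without miR-263a-5p and 10 of 98 with median-of-ratios. Age with oxidation gave 17 of 97 with median-of-ratios and 42 of 96 with TMM. At 10 RPM 0 of 5 nearest profiles were shared. The 3-day ratio of miR-252-3p changed sign within its counting interval (-0.95 with TMM), and arm shares moved by less than theirs under every alternative run. The lone 3-day oxidized library, the shallowest, limits every miR-252-3p value that uses it. Requiring the whole read to match the hairpin was not run, since no hairpin sequence was used, nor was filtering on control libraries for age with oxidation, which compares none. No paired analysis was possible because the labels give no replicate numbers and each group holds 1 library.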
